A study of Mus musculus with 14 samples.

Results

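The laminin chains and other basement membrane genes described here are Lama1, Lama2, Lama4, Lamb1, Lamb2, Lamc1, Nid1, Nid2, Hspg2 and Fn1. They are 10 named genes of the 55414 genes in the count table, matched by symbol, and were chosen with earlier results of these data known. They were measured by RNA-seq in granulosa cells (GCs), the somatic cells that surround the oocyte, released from antral follicles of female mice kept on chow until 12 wk of age. There were 4 groups and 14 libraries. The db/db group (n = 4) came from the B6.BKS(D)-Leprdb/J colony and was homozygous for a mutation that removes the long form of the leptin receptor in the whole animal, and CT db (n = 4) were lean mice of that colony. The ob/ob group (n = 3) came from the B6.Cg-Lepob/J colony and was homozygous for a mutation that removes leptin, and CT ob (n = 3) were lean mice of that colony. The sample labels give all controls as wild type, whereas the column names of the controls in the table read as heterozygous, and this was not settled. Each library pooled about 50 cells, and no source used here ties a library to a single animal, so p-values measure only the spread between these libraries. Libraries are lettered within each group.

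Laminins are trimers of an alpha, a beta and a gamma chain that are secreted and polymerise into a sheet on the cell surface. Nidogens and the heparan sulfate proteoglycan perlecan tie this sheet to the collagen IV network, and integrins and dystroglycan anchor it to the cell. In the ovary, such a basal lamina surrounds the follicle and separates the GCs from the theca cells and blood vessels outside it.

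The libraries held 2204686 to 8367593 counts, with db/db at the low end (up to 3059777), ob/ob at the high end (from 5306632) and both control groups in between. Levels are given as CPM, which are counts scaled to a common library total after TMM correction, on which 3 counts, taken as the limit of detection, amounted to 0.369 to 1.30 CPM. There were no molecular identifiers, so this limit covers counting error only. Counts of the mutated genes were too low to test the labels (0 to 3 per library for Lep, 0 to 17 for Lepr). All 11 GC markers examined were above the limit in every library. Other cell types also left RNA in the libraries. The summed level of 11 theca and stroma markers was highest in db/db library A (329 CPM) and CT ob library B (169 CPM) and lay between 9.14 and 76.2 CPM elsewhere. Cyp17a1 alone made up 256 CPM of the sum in db/db library A. The 18S ribosomal RNA gene took 24.5% of the counts of CT ob library C and 1.10% to 12.8% elsewhere.

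In the GRCm39 annotation, Lama1 (ENSMUSG00000032796) lies on chromosome 17 from 68004223 to 68129642 on the plus strand. Lamb2 (ENSMUSG00000052911) lies on chromosome 9 from 108356935 to 108367729 on the plus strand, and no other annotated gene overlaps it. Nid2 (ENSMUSG00000021806) lies on chromosome 14 from 19801298 to 19861855 on the plus strand and overlaps the protein-coding gene Rtraf on the other strand. Hspg2 (ENSMUSG00000028763) lies on chromosome 4 from 137196079 to 137298231 on the plus strand and overlaps Ldlrad2. Lamb1 overlaps Dld and Lama4 overlaps Fam229b, both on the opposite strand. The counting is not stated to use strand, so the values of these overlapping genes are uncertain to the extent that reads of the partner were counted.

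Promoter windows of 300 bases, from 250 before to 50 after the start of the gene, were available for 5 of the 10 genes from RefSeq (GRCm38.p6). Windows of both beta chain genes are shown because Lamb1 and Lamb2 encode alternative chains of the same position in the trimer and had the third highest correlation between libraries among all pairs of these genes, and that of Hspg2 because it held the most motif matches. Capitals mark GGGCGG, the GC box, searched on both strands. TATAAA and CAAGGTCA, a motif of the NR5A receptors of steroidogenic cells, were searched in the same way and were absent from the 5 windows.
Lamb1, chr12:31265043-31265342, plus strand: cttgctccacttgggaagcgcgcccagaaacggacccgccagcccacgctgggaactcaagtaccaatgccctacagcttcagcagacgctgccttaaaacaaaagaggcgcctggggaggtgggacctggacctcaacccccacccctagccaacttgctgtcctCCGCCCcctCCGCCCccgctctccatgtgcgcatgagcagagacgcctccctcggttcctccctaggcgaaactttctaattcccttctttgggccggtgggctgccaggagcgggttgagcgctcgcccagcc
Lamb2, chr9:108479612-108479911, plus strand: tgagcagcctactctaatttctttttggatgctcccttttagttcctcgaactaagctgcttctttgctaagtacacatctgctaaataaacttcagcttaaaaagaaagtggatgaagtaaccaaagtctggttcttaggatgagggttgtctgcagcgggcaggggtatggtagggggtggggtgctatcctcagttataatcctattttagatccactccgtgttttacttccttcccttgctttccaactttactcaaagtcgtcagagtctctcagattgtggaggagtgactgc
Hspg2, chr4:137468553-137468852, plus strand: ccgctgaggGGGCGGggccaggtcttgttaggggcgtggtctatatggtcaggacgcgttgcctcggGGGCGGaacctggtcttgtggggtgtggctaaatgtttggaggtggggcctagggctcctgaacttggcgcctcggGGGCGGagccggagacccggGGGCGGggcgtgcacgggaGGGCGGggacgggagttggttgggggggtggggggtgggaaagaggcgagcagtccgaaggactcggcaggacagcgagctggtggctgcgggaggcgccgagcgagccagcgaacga
The Lamb1 window had 2 GC boxes and 63.7% GC, the Lamb2 window 0 GC boxes and 44% GC, and the Hspg2 window 5 GC boxes and 70.3% GC. The Lama2 and Nid1 windows had 1 GC box each. Of all 32851 windows of this length, 35.7% held GGGCGG, 13.6% held TATAAA and 1.56% held CAAGGTCA, and the median GC content was 52.7%. The beta chain windows thus differed in these letters, which says nothing about the factors that bind there.

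To compare levels between genes, CPM was divided by the length of the canonical transcript. On this scale, Lama1, which encodes the alpha 1 chain of laminin 111, was the highest of the 10 genes in all 14 libraries, with a mean of 15.2 CPM per kb and a range of 9.62 to 23.9. The beta chain genes Lamb2 (7.49 CPM per kb) and Lamb1 (5.99) and the gamma 1 chain gene Lamc1 (4.34) followed. Lamb2 was above Lamb1 in 10 of 14 libraries and Lamb1 above Lamc1 in 11 of 14, so the middle of this order was not the same in every library. Lamc1 was above Hspg2, which encodes perlecan, in all 14 libraries (mean of Hspg2, 2.28 CPM per kb). Nid2 (1.24), Lama4 (1.05), Nid1 (0.975) and Fn1 (0.814 CPM per kb) were not separated from each other, since each was above the next in only 7 to 9 of 14 libraries. Lama2, the alpha 2 chain gene known from muscle, was the lowest at 0.277 CPM per kb. This order, and the shares given below, depend on the length used. The exons of all transcripts together spanned 9.71 kb for Lama1, close to its canonical 9.56 kb. They spanned 15.7 kb for Lama4 (canonical 6.05 kb) and 15.8 kb for Fn1 (canonical 8.41 kb). Whether reads covered these long transcripts evenly was not examined.

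The chains of each position in the trimer were compared within each library. Lama1 made up 74.4% to 92.7% of the summed CPM per kb of the 5 alpha chain genes (median 87.2%). Lama4, the alpha 4 chain gene known from blood vessels, made up 0.278% to 20.0%, and Lama2, Lama3 and Lama5 each stayed at or below 7.28%. Lamc1 made up 82.9% to 99.1% of the summed CPM per kb of Lamc1 and Lamc3, and Lamc3 the other 0.884% to 17.1%. The beta position was shared, with Lamb1 at 23.1% to 58.6% and Lamb2 at 41.4% to 76.9%, while Lamb3 had at most 2 counts in any library. The ratio of Lamb1 to Lamb2 on the scale per kb ranged from 0.300 to 1.42 and was above 1 in 4 of 14 libraries. Lama1 exceeded Lamc1 by 2.29 to 5.99 times. The transcripts for alpha 1, beta 1 or beta 2, and gamma 1 chains were thus the main ones among the laminin transcripts compared in all 4 groups.

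**Figure D1:**
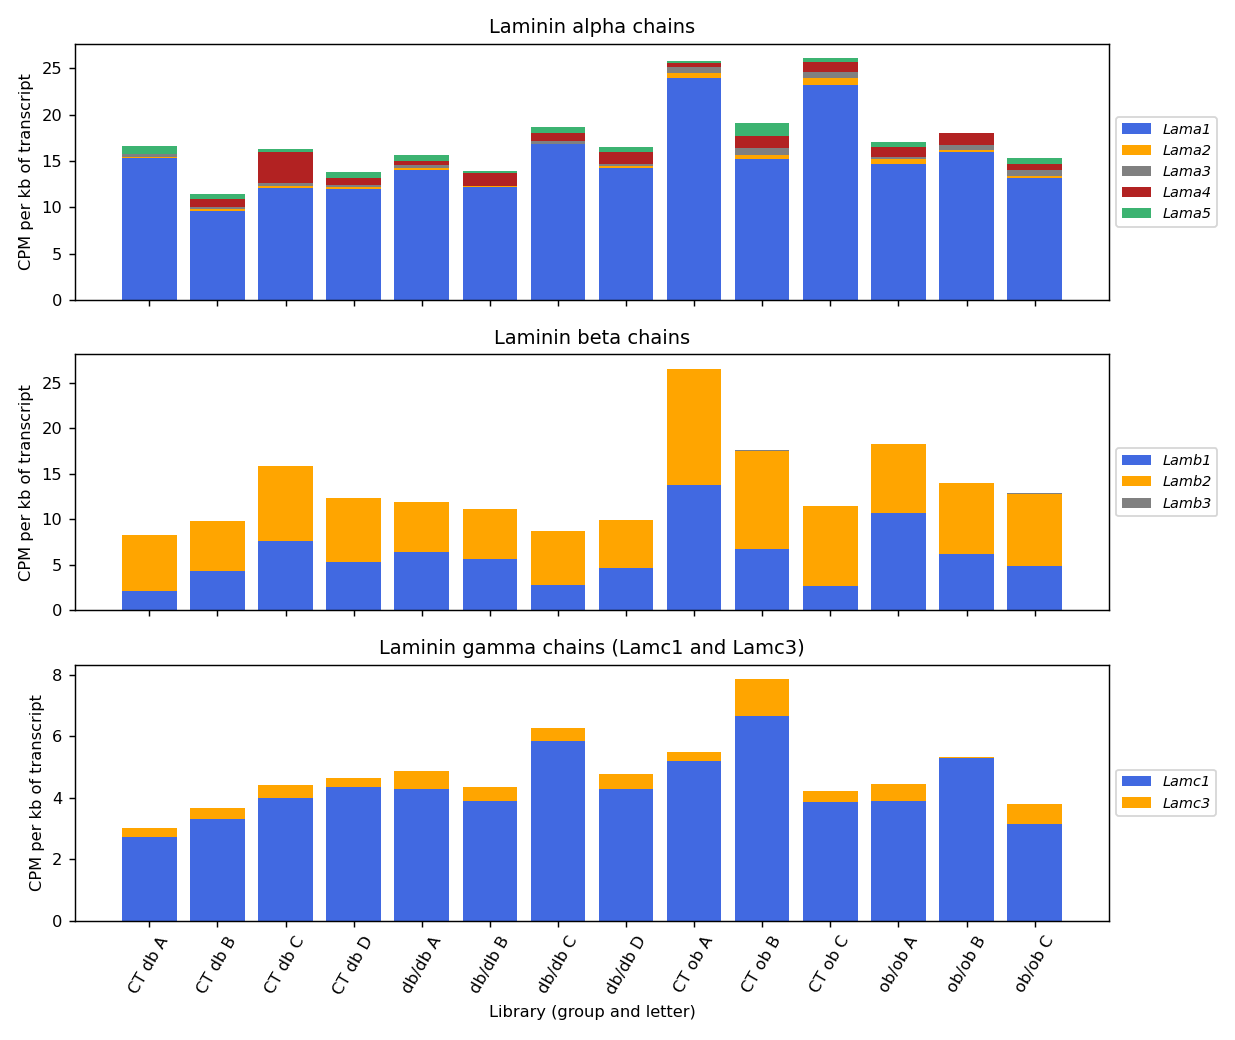
Laminin chain genes in each of the 14 libraries, as stacked bars of CPM per kb of transcript (y axis, linear from 0) for alpha, beta and gamma chains. Lama1 fills 74.4% to 92.7% of each alpha bar and Lamc1 82.9% to 99.1% of each gamma bar, which sums Lamc1 and Lamc3, while Lamb1 and Lamb2 share the beta bars.

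Lama1 stood at 147, 92.0, 116 and 115 CPM in CT db libraries A to D and at 134, 116, 161 and 136 CPM in db/db libraries A to D. It stood at 228, 146 and 221 CPM in CT ob libraries A to C and at 141, 153 and 127 CPM in ob/ob libraries A to C. CT ob libraries A and C lay above every other library, whereas CT ob library B lay within the range of the other groups. Lama2 had 1.69, 1.70, 1.92 and 2.18 CPM in CT db, 2.13, 0.860, 0.433 and 2.19 CPM in db/db. In the ob colony it had 5.37, 4.24 and 7.17 CPM in CT ob and 4.49, 1.52 and 1.72 CPM in ob/ob. These values rest on 1 to 28 counts per library, and CT ob lay above both groups of the db colony. Lama4 varied most within CT db, at 0.281, 5.11, 19.8 and 4.64 CPM, and ranged from 2.56 to 8.60 CPM in the other groups.

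Lamb2, the beta 2 chain gene known from the basement membranes of kidney glomeruli and neuromuscular junctions, stood at 34.6, 30.9, 46.9 and 40.1 CPM in CT db and at 30.7, 31.0, 33.3 and 29.4 CPM in db/db. It stood at 71.5, 61.1 and 49.8 CPM in CT ob and at 42.7, 43.9 and 45.0 CPM in ob/ob. The libraries of each mutant group lay close together, with a coefficient of variation of 5.31% in db/db and 2.71% in ob/ob, against 18.4% in CT db and 17.8% in CT ob. The mutant values rest on 72 to 94 counts per library in db/db (n = 4) and 247 to 366 in ob/ob (n = 3). A spread taken from so few libraries is itself uncertain. Whether it differed between the groups was not tested. Lamb1 was far more scattered, at 12.4, 25.3, 43.9 and 30.5 CPM in CT db, 37.5, 32.7, 16.0 and 27.2 CPM in db/db. In the ob colony it stood at 80.1, 38.9 and 15.4 CPM in CT ob and 62.2, 35.9 and 28.1 CPM in ob/ob. Its coefficient of variation ranged from 32.6% in db/db to 73.2% in CT ob, and all groups overlapped. Lamc1, the gamma chain gene shared by most laminins, stood at 21.6, 26.2, 31.8 and 34.6 CPM in CT db, 34.1, 31.0, 46.3 and 34.0 CPM in db/db. In the ob colony its level was 41.2, 52.9 and 30.7 CPM in CT ob and 30.9, 41.9 and 25.0 CPM in ob/ob. These ranges overlapped between the groups of each colony.

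Nid2, which encodes nidogen 2, a linker that binds laminin gamma 1, stood at 3.65, 3.83, 3.02 and 4.36 CPM in CT db and at 15.8, 5.16, 13.4 and 6.56 CPM in db/db. It stood at 4.79, 13.2 and 1.02 CPM in CT ob and at 5.70, 0.00 and 4.80 CPM in ob/ob, with 0 counts in ob/ob library B, which allows up to 0.415 CPM. The 4 CT db libraries lay within a narrow range and below all db/db libraries. Nid1, which encodes nidogen 1, ranged from 0.562 to 7.41 CPM in CT db, from 2.60 to 6.87 CPM in db/db, from 2.11 to 14.2 CPM in CT ob and from 2.58 to 9.28 CPM in ob/ob. The share of Nid1 in the summed nidogen transcripts per kb therefore ran from 11.0% to 100% across the 14 libraries.

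Hspg2 stood at 31.5, 16.0, 19.8 and 36.0 CPM in CT db, 40.1, 28.8, 35.1 and 24.0 CPM in db/db. Its ob colony values were 31.6, 68.1 and 50.2 CPM in CT ob and 27.5, 20.2 and 33.8 CPM in ob/ob, so that 2 of the CT ob libraries lay above every other library. Fn1, which encodes the integrin-binding matrix protein fibronectin, stood at 3.09, 2.55, 11.8 and 8.18 CPM in CT db, 2.98, 12.5, 13.8 and 7.18 CPM in db/db. Its ob colony values were 1.53, 17.0 and 6.48 CPM in CT ob and 1.90, 3.05 and 3.82 CPM in ob/ob. CT ob library B, one of the libraries with a high theca and stroma marker sum, held the highest CT ob value of Lama4, Lamc1, Nid1, Nid2, Hspg2 and Fn1 and the lowest of Lama1 and Lama2. In such pooled libraries, more cells of a type and more RNA per cell cannot be told apart.

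**Figure D2:**
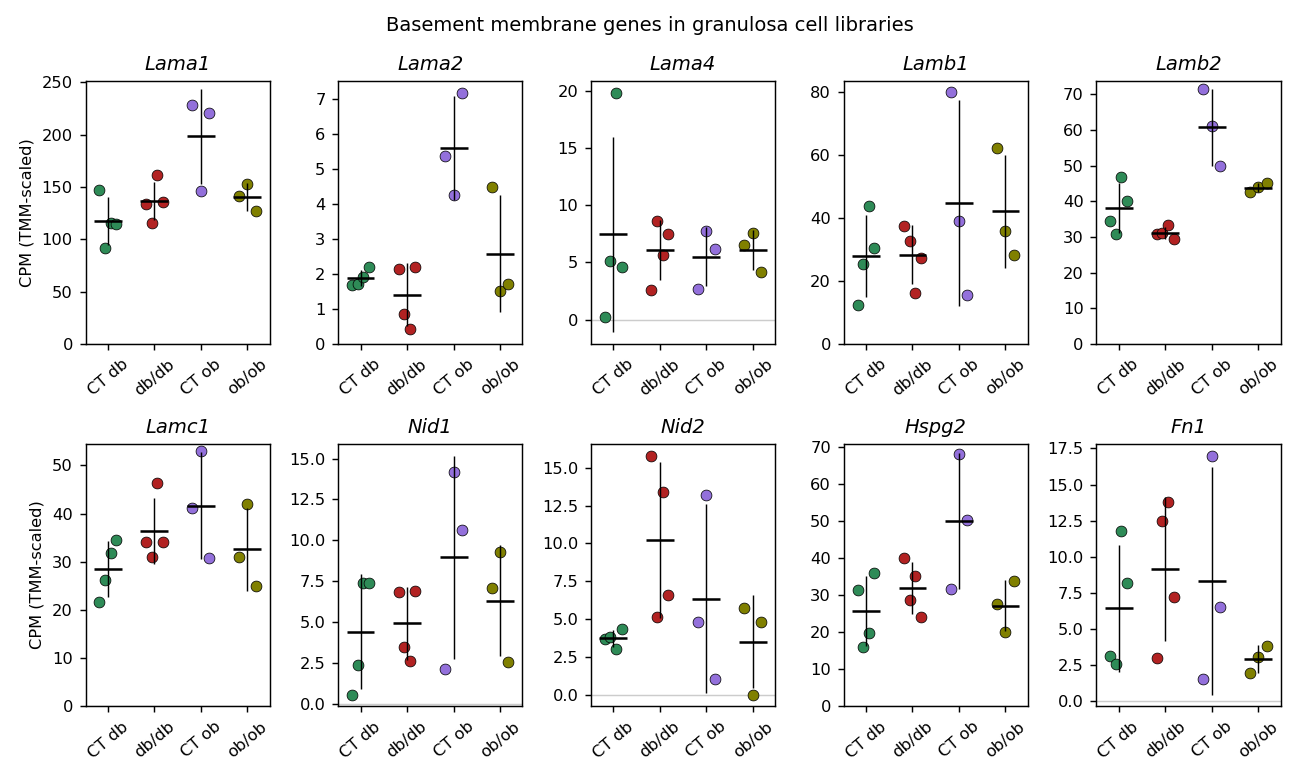
TMM-scaled CPM (y axis, linear) of the 10 genes in CT db (n = 4), db/db (n = 4), CT ob (n = 3) and ob/ob (n = 3); each point is 1 library, the horizontal bar the group mean and the vertical line ± SD. Lamb2 separates CT ob (49.8 to 71.5 CPM) from the other 3 groups, and Nid2 separates db/db (5.16 to 15.8 CPM) from CT db (3.02 to 4.36 CPM).

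To ask whether loss of the leptin receptor changed these genes, db/db was compared with CT db. Of the 10 genes, 9 passed the filter on low counts and 0 were called by edgeR's quasi-likelihood test (Benjamini-Hochberg adjusted p of 0.05 or less), against 0.00884% of all 11317 genes tested. DESeq2 also called 0. Lama2 did not pass the filter. Nid2 had the largest difference, averaging 10.2 ± 5.16 CPM in db/db against 3.72 ± 0.554 CPM in CT db (SD, n = 4 each), a log2 fold change of 1.44 (SE 0.392) and an adjusted p of 0.432 in edgeR's test. It was the only one of the 9 genes with an unadjusted p under 0.05 (7.59% of all genes tested), and the only one of the 9 whose groups did not overlap (4.14% of all genes tested; two-sided exact permutation p = 0.0286, the lowest that 4 against 4 libraries can give). Leaving out each library in turn gave log2 fold changes of 1.15 to 1.65. The highest Nid2 value was in db/db library A, which also had the highest theca and stroma marker sum. Cyp17a1 alone made up 256 of those 329 CPM. In that library 8 of the 11 markers were above the limit, against 9 in db/db library D. The other db/db libraries did not follow this order. Nid2 was 13.4 CPM in library C, which had the lowest marker sum of db/db (19.9 CPM). It was 6.56 CPM in library D, where the sum was 76.2 CPM. The difference in Nid2 remained positive without library A, and the part of theca and stroma cells in the result was not tested. The other 8 genes had log2 fold changes between -0.30 (Lamb2) and 0.51 (Fn1), and 7 of 9 were positive with a median of 0.22 beside 0.01 over all genes.

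To ask whether loss of leptin changed these genes, ob/ob was compared with CT ob. All 10 genes were tested and 0 were called by edgeR's quasi-likelihood test, as were 0.00% of all 12425 genes tested, and DESeq2 called 0 of the 10. The fitted change was negative for 9 of 10 genes, Lama4 being the exception at 0.16, and the median was -0.50 beside -0.04 over all genes. Marker sums also differed without overlap, at 14.7 to 18 CPM in ob/ob against 27.0 to 65.1 CPM in CT ob for the endothelial list and 17881 to 24842 against 11000 to 15941 CPM for the GC list. Within the GC list, 8 markers had positive and 3 negative changes. Its highest gene, Gja1, had means of 11014 and 6082 CPM (adjusted p = 0.539 in edgeR's test and 0.00616 in DESeq2). The part of these markers in the changes of the 10 genes was not tested. An unadjusted p under 0.05 was found for 3 of the 10 genes, beside 8.16% of all genes tested. Hspg2 had means of 27.2 ± 6.82 CPM in ob/ob against 50.0 ± 18.2 CPM in CT ob (SD, n = 3 each) and a log2 fold change of -0.88 (SE 0.323, adjusted p = 0.573 in edgeR's test). Lama1 had means of 140 ± 13.2 and 198 ± 45.8 CPM and a log2 fold change of -0.51 (SE 0.218, adjusted p = 0.611 in edgeR's test). Lamb2 had means of 43.9 ± 1.19 and 60.8 ± 10.9 CPM and a log2 fold change of -0.48 (SE 0.193, adjusted p = 0.606 in edgeR's test). Lamb2 was the only one of the 10 whose groups did not overlap, beside 15.8% of all genes tested (two-sided exact permutation p = 0.10, the lowest that 3 against 3 libraries can give). Fn1 had the largest fitted change, -1.49 (SE 0.769), which was -0.40 without CT ob library B and -2.00 without CT ob library A.

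The lean controls of the colonies were then compared, where colony, model and any batch of handling cannot be told apart. Here, 1 fit of all 14 libraries with edgeR's quasi-likelihood test put 2 of the 10 genes past the threshold, both higher in CT ob. Of all 12586 genes tested, 6.63% were called, and 2.24% were called as higher in CT ob. Lamb2 was higher in CT ob by 1.60-fold (60.8 ± 10.9 CPM, n = 3, against 38.1 ± 7.00 CPM, n = 4, SD; log2 fold change 0.68, SE 0.166, adjusted p = 0.0307 in edgeR's test), and its groups did not overlap (two-sided exact permutation p = 0.0286, the lowest possible here). Lama1 was higher in CT ob by 1.69-fold (198 ± 45.8 against 117 ± 22.4 CPM; log2 fold change 0.76, SE 0.187, adjusted p = 0.0319 in edgeR's test), and its groups overlapped through CT ob library B (two-sided exact permutation p = 0.0571). The called genes were the alpha and the beta chain gene with the highest mean levels, and they had the smallest standard errors of the 10. Lama2 (log2 fold change 1.56), Nid1 (1.01), Hspg2 (0.95) and Nid2 (0.78) had larger fitted changes with larger standard errors and were not called. The calls thus reflect precision as well as the size of the change.

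An unadjusted p under 0.05 was found for 5 of the 10 genes, beside 26.9% of all genes tested. The other 3 were Hspg2 (log2 fold change 0.95, SE 0.308, adjusted p = 0.0707 in edgeR's test), Lama2 (1.56, SE 0.510, adjusted p = 0.0737) and Lamc1 (0.55, SE 0.236, adjusted p = 0.156). DESeq2 called 3 genes, with Hspg2 added (adjusted p = 0.0377), and its share over all genes was not taken. The groups did not overlap for Lamb2 and Lama2, 2 of 10 genes beside 21.2% of all genes tested. The change was positive for 9 of 10 genes, all but Lama4, with a median of 0.73 beside 0.06 over all genes. These calls were not stable to the filter or the libraries used. Without a filter on low counts, Lamb2 lost its call (adjusted p = 0.0804 in edgeR's test) and Hspg2 gained one (adjusted p = 0.00987). The number called fell to 0 without CT db library B, CT db library D or CT ob library A, and to 1 without CT db library C, CT ob library B or CT ob library C, although the log2 fold change stayed between 0.54 and 0.79 for Lamb2 and between 0.64 and 0.93 for Lama1. Without TMM scaling it was also 0, with adjusted p-values of 0.0750 for Lamb2 and 0.0585 for Lama1 in edgeR's test. The TMM factor of CT ob library C, which had the high share of 18S RNA, was 0.800. The oocyte marker sum was 68.6 to 1084 CPM in CT ob and 2.81 to 252 CPM in CT db, the endothelial sum of 10 markers was 27.0 to 65.1 against 6.74 to 16.5 CPM, and the GC marker sum was 11000 to 15941 against 18085 to 28285 CPM. Gja1 had the highest mean of the GC list, at 6082 CPM in CT ob against 16877 CPM in CT db. It was called as lower (log2 fold change -1.47, adjusted p = 0.00222 in edgeR's test), as was Fshr (-1.72, adjusted p = 0.0163). Of the 11 GC markers, 7 had negative and 4 positive changes, Foxl2 (0.57) among the latter, so the sum did not stand for every marker. The part of these differences in the result was not tested.

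Between the mutants, ob/ob against db/db, 0 of the 10 genes were called by edgeR's quasi-likelihood test, against 0.0159% of all genes tested, and DESeq2 called 0. An unadjusted p under 0.05 was found for Lamb2 and Fn1, 2 of 10 beside 8.19% of all genes tested. Lamb2 had means of 43.9 ± 1.19 CPM in ob/ob and 31.1 ± 1.65 CPM in db/db (log2 fold change 0.50, SE 0.169, adjusted p = 0.397 in edgeR's test). It was the only one of the 10 whose groups did not overlap, beside 9.91% of all genes tested (two-sided exact permutation p = 0.0286, the lowest possible here). The mean of Lamb2 was thus higher in the ob colony in both the lean and the mutant comparison, which have no library in common, although 1 fit served both, and passed the threshold in the lean one alone. The interaction, which tests this difference, was -0.18 (SE 0.238, adjusted p = 0.851 in edgeR's test). In neither comparison can colony, model and any batch of handling be told apart. The ob/ob libraries were also the deepest and the db/db libraries the shallowest. Fn1 had means of 2.92 ± 0.964 and 9.12 ± 5.0 CPM (log2 fold change -1.62, SE 0.732, adjusted p = 0.588 in edgeR's test), and its groups overlapped. The oocyte marker sum was 137 to 723 CPM in ob/ob and 5.54 to 65.3 CPM in db/db, and all 9 tested oocyte markers had positive changes with an unadjusted p under 0.05 in edgeR's test (median log2 fold change 3.48). The part of this difference in the result was not tested.

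Whether the mutant effect differed between the models was tested as an interaction. By edgeR's quasi-likelihood test, 0 of the 10 genes and 0.00% of all genes tested passed, and DESeq2 called 0 of the 10. An unadjusted p under 0.05 was found for 2 of 10, beside 8.11% of all genes tested. These were Lama1, with a fitted change of 0.22 for db/db, one of -0.51 for ob/ob and an interaction of -0.72 (SE 0.267, adjusted p = 0.538 in edgeR's test), and Hspg2, with changes of 0.31 and -0.88 and an interaction of -1.18 (SE 0.441, adjusted p = 0.539). The changes come from the fit of each model and the interactions from the fit of all libraries. Nid2 had the largest interaction, -2.32 (SE 1.21, unadjusted p = 0.0730 in edgeR's test), which was -1.26 without CT ob library B.

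**Figure D3:**
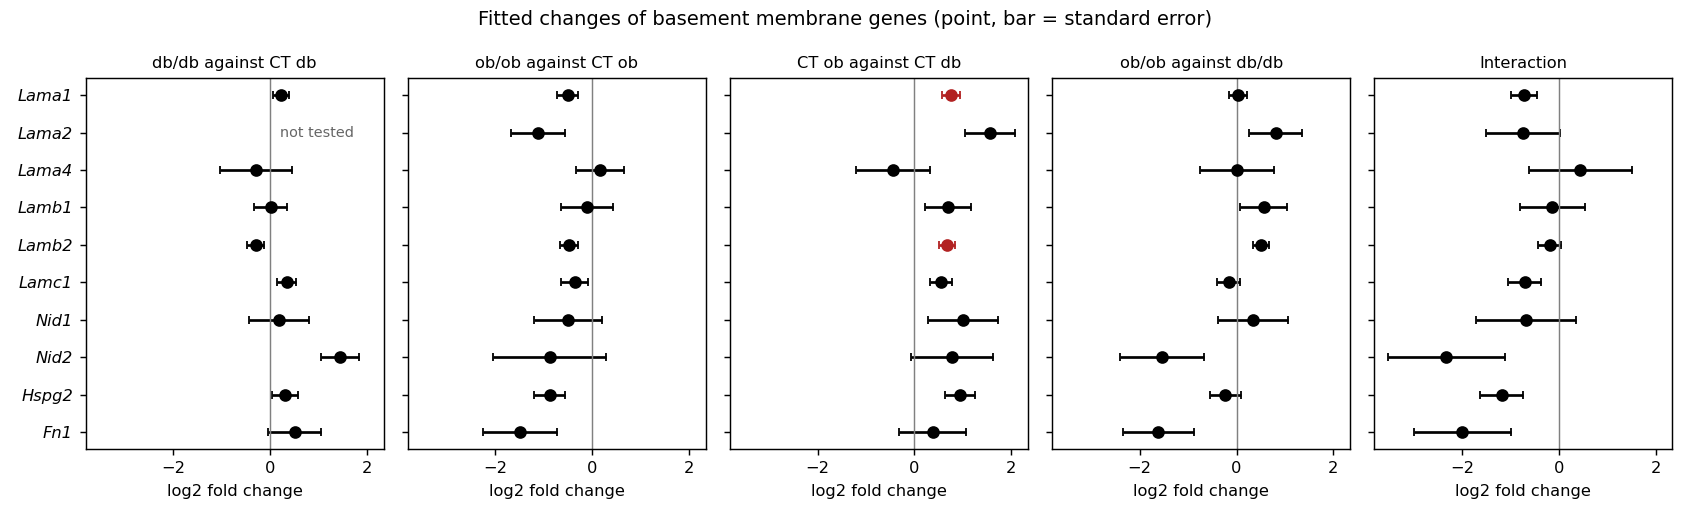
Fitted log2 fold changes of the 10 genes (points) with standard errors (bars) in each comparison, on a linear axis; red points have an adjusted p of 0.05 or less in edgeR's quasi-likelihood test. Red points appear for Lama1 (0.76) and Lamb2 (0.68) in CT ob against CT db, and Lama2 was not tested in db/db against CT db.

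Other parts of the basement membrane and its receptors were read from lists that were chosen with earlier results of these data known. The shares of all genes tested that are given beside the counts of these lists, here and below, are therefore descriptive. They do not test whether a list differs from other genes. Of the 6 chain genes of collagen IV, the second network of the basement membrane, edgeR called 2 in the lean controls. Col4a1 was higher in CT ob (30.4 ± 34.8 against 2.51 ± 1.16 CPM, log2 fold change 3.60, adjusted p = 0.0280 in edgeR's test), and so was Col4a2 (20.4 ± 23.6 against 2.04 ± 1.08 CPM, log2 fold change 3.33, adjusted p = 0.0288). The highest Col4a1 value of CT ob, 70.1 CPM, was in CT ob library B, and without that library the log2 fold changes were 2.05 for Col4a1 (adjusted p = 0.133 in edgeR's test) and 1.73 for Col4a2 (adjusted p = 0.160). The other 4 chain genes had log2 fold changes of -0.03 (Col4a3) to 1.64 (Col4a6), with adjusted p-values of 0.0924 or more in edgeR's test. Col4a1 and Col4a2 were the 2 genes called by edgeR among 18 tested of 26 other basement membrane proteins, beside 6.63% of all genes tested. DESeq2 called 3, adding Smoc2, which was lower in CT ob (log2 fold change -1.64, adjusted p = 0.0153 in DESeq2). Of 4 other laminin chain genes, 3 were tested and 0 called, Lama3 being the one with an unadjusted p under 0.05 (log2 fold change 1.42, adjusted p = 0.0816 in edgeR's test, and 0.0327 in DESeq2). In ob/ob against CT ob, Col4a1 (log2 fold change -3.69), Col4a2 (-3.61), Col18a1 (-3.32), Sparc (-1.79) and Ntn4 (-1.89) had an unadjusted p under 0.05 in edgeR's test (5 of 18 tested, beside 8.16% of all genes tested) and 0 were called, the adjusted p-values lying at 0.539 or more. DESeq2 called 3 of these, Col4a2 (adjusted p = 0.00205), Sparc (0.0209) and Col18a1 (0.0331), and its share over all genes was not taken. This comparison shares the CT ob libraries with the one before. In db/db against CT db, 2 of 12 tested of this list, Pxdn (log2 fold change 0.41), a peroxidase that crosslinks collagen IV, and Smoc1 (0.63), had an unadjusted p under 0.05 (beside 7.59% of all genes tested), and 0 were called by edgeR or DESeq2.

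Among 22 matrix receptors, 21 were tested in the lean controls and edgeR called 4, beside 6.63% of all genes tested. Dag1, which encodes the laminin receptor dystroglycan, was higher in CT ob (844 ± 125 against 370 ± 74.2 CPM, log2 fold change 1.19, SE 0.184, adjusted p = 0.00659 in edgeR's test), as were the collagen receptor Ddr1 (0.78, adjusted p = 0.0396) and the syndecan Sdc1 (0.89, adjusted p = 0.0386). The integrin subunit gene Itgav was lower in CT ob (-0.94, adjusted p = 0.0371 in edgeR's test). DESeq2 called 8 receptors, adding the integrin subunit genes Itga6 (1.61) and Itga3 (1.46) as higher and Itga2 (-1.94) and Itgb5 (-0.90) as lower in CT ob. The 6.63% is edgeR's share and is no background for the DESeq2 count, whose share over all genes was not taken. Of the 12 tested genes that glycosylate dystroglycan so that it binds laminin, 0 were called by edgeR and 0 by DESeq2. In edgeR's test, 2 of the 12 had an unadjusted p under 0.05, beside 26.9% of all genes tested. Of 9 tested matrix proteases and inhibitors, Mmp2 (3.79, adjusted p = 0.0346), Mmp14 (1.14, adjusted p = 0.0134) and Timp1 (1.65, adjusted p = 0.0102 in edgeR's test) were higher in CT ob, and DESeq2 also called 3. Dag1 stayed past the threshold in edgeR's test whichever of the 14 libraries was left out. Mmp14 and Timp1 did so in 13 of the 14 cases, losing it without CT ob library C (adjusted p of 0.0542 and 0.0517), whereas Itgav and Mmp2 did so in 9, Sdc1 in 8 and Ddr1 in 5. In each of the other 4 comparisons, 0 genes of the receptor, glycosylation and protease lists were called by edgeR or by DESeq2. At an unadjusted p under 0.05 in edgeR's test, those comparisons held 1 to 7 receptors, 0 glycosylation genes and 3 to 5 proteases or inhibitors, beside 7.59% to 8.19% of all genes tested. In ob/ob against CT ob, 7 of 19 receptors tested had an unadjusted p under 0.05 (8.16% of all genes tested). Of these, 4 were higher in ob/ob, namely Itga2 (2.47), Itga9 (1.14), Itgav (0.56) and Sdc4 (0.56). The 3 lower ones were Itga6 (-1.33), Ddr1 (-0.88) and Dag1 (-0.51). Over the 19 receptors, 9 changes were positive and 10 negative.

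**Figure D4:**
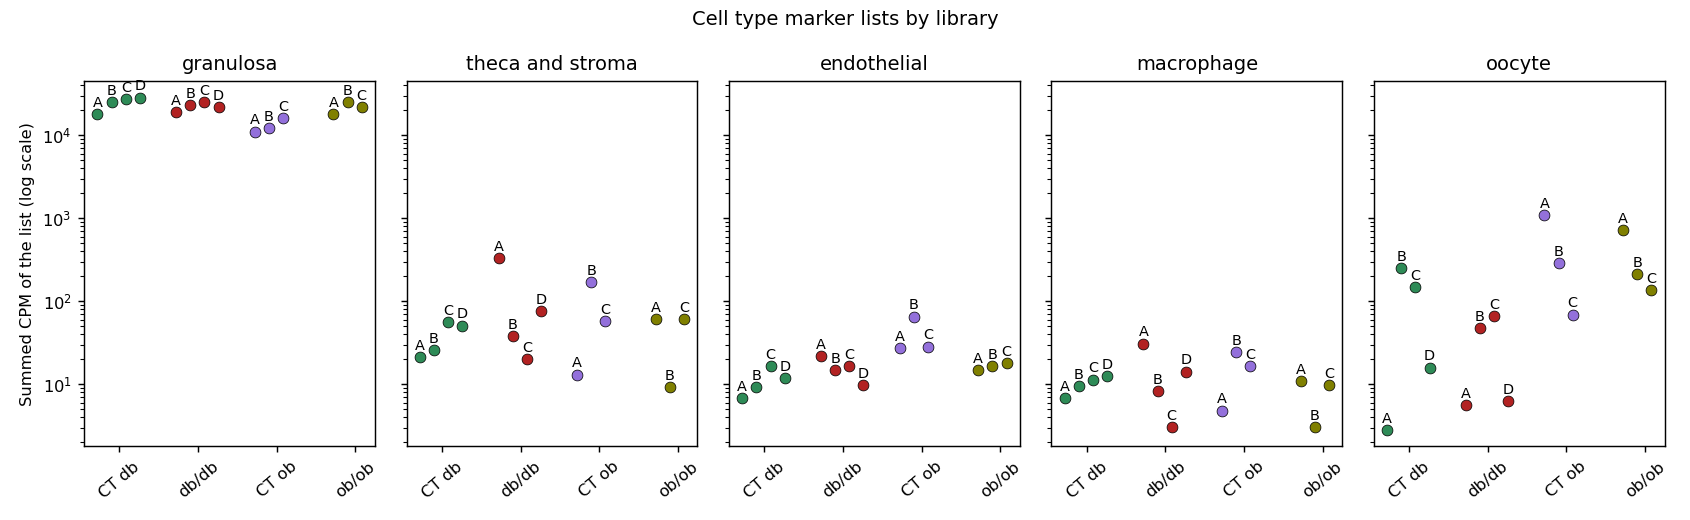
Summed CPM (y axis, log scale) of marker lists for GCs and 4 other cell types in each library, labelled by its letter. The theca and stroma list peaks in db/db library A (329 CPM) and CT ob library B (169 CPM), and the endothelial list is highest in the 3 CT ob libraries (27.0 to 65.1 CPM).

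Finally, the genes were compared with each other over the 14 libraries, as log2 CPM after the group means were subtracted, a description in which points share library and depth. The 45 pairs had a median Pearson r of 0.0567, and 4 pairs were above 0.5, namely Lama4 and Nid1 (0.701), Lama4 and Fn1 (0.608), Lamb1 and Lamb2 (0.60) and Lamb2 and Lamc1 (0.512). Lama1, the most abundant, was not among them and had an r of 0.146 with Lamb2 and -0.105 with Lamc1. The 4 pairs are the highest of 45, and no r was tested. Those with Lama4 rest on low counts. CT db library A had 1 count of Lama4, 2 of Nid1 and 11 of Fn1, against 72, 27 and 43 in CT db library C. Outside the 10 genes, the gene most like each one among 12576 was Pced1b for Lama1 (0.900), Mme for Lama2 (0.876), Dock8 for Lama4 (0.886), Gm10509 for Lamb1 (0.911), Slc16a1 for Lamb2 (0.910), D830024N08Rik for Lamc1 (0.970), Fhl1 for Nid1 (0.919), Marveld2 for Nid2 (0.931), Pkmyt1 for Hspg2 (0.897) and Dusp3 for Fn1 (0.927). No gene was the closest match of more than 1 of the 10. Each of these r is the largest of 12576 over 14 libraries. The search alone can give values this high, so they show no link between the genes, and none was tested. With the summed theca and stroma markers, r was 0.551 for Hspg2, 0.544 for Lama2, 0.529 for Nid2, 0.525 for Nid1 and -0.502 for Lama1, and lay between -0.113 and 0.168 for the other 5. With the other 4 marker lists, r ran from -0.563 (Hspg2 and oocyte) to 0.679 (Lama4 and GC). Most genes named for the theca and stroma list had values of like size with other lists. With the macrophage list, r was 0.650 for Lama2, 0.543 for Nid1, 0.444 for Hspg2, 0.387 for Nid2 and -0.524 for Lama1. With the endothelial list, it was 0.534 for Nid1, 0.406 for Hspg2, 0.387 for Nid2, -0.219 for Lama2 and -0.514 for Lama1.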

How the data were processed

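The authors deposited whole-number counts per gene without normalization, for 14 libraries of polyadenylated RNA (Smart-seq2 type cDNA, 100 to 200 pg into Nextera XT, single reads of 75 bp). The study's methods name cutadapt, STAR, GRCm39 and featureCounts, whereas the submitters' processing notes name Trim Galore 0.6.2, HISAT2 2.1.0 and GRCm38, and which made the counts was not settled. Strand and multimapping settings are not given in the sources used here. Columns were assigned to groups by name, and 98.8% of identifiers matched the GENCODE annotation of GRCm39. With edgeR 4.0.16 in R 4.3.3, genes were filtered (filterByExpr, minimum count 10, minimum total 15), TMM-scaled and tested by quasi-likelihood with Benjamini-Hochberg adjustment over all genes tested. Each model was fitted alone, and 1 fit of all libraries served the other comparisons. Exact permutation tests compared mean TMM-scaled CPM on the linear scale. Correlations used log2 CPM with a prior count of 2. The tests were also run on simulated counts, the outcome of which is not given here and is not used as support. Alternatives were DESeq2 1.42.0, other scalings and filters, no 18S gene, robust fits and leaving out libraries. All shares of genes called or under a p-value are from edgeR, and none was taken for DESeq2. The 10 genes and all lists were chosen with earlier results of these data known. One gene of the lists is not reported here. Genes named beside them were mainly list genes called or with an unadjusted p under 0.05, not all of which are named, and the gene most correlated with each of the 10.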

Additional observations from a re-analysis of the deposited data

How the results depend on the processing

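Of 440 values of single genes under alternatives other than leaving out one library, 425 kept direction and side of the threshold, 9 changed sign, 4 lost and 2 gained the threshold. The number of genes called in CT ob against CT db was 0 with library totals alone, 1 without db/db library A and CT ob library B (chosen after seeing the data), and 0 to 2 when each library was left out, and in every other comparison it stayed at 0 throughout. Without a filter on low counts, Lamb2 in CT ob against CT db lost the threshold (adjusted p = 0.0804 in edgeR's test), Hspg2 passed it (adjusted p = 0.00987), and Lamb1 in db/db against CT db became -0.02. Without db/db library A and CT ob library B, the log2 fold changes in db/db against CT db were -0.15 for Lamb1 and 0.00 for Nid1, in ob/ob against CT ob 0.03 for Nid1 and 0.21 for Nid2, in CT ob against CT db -0.28 for Nid2 and -0.74 for Fn1, in ob/ob against db/db -0.25 for Lama4, and in the interaction 0.04 for Nid1. Leaving out each library in turn spanned 0 for the following log2 fold changes. In CT ob against CT db, these were Fn1 (-0.74 to 0.89), Lama4 (-0.84 to 0.67), Lamb1 (-0.04 to 1.07) and Nid2 (-0.28 to 1.24). In db/db against CT db, they were Lama4 (-0.68 to 0.81), Lamb1 (-0.23 to 0.29) and Nid1 (-0.18 to 0.54). In ob/ob against CT ob, they were Lama4 (-0.19 to 0.50), Lamb1 (-0.51 to 0.61), Nid1 (-0.99 to 0.03) and Nid2 (-1.40 to 0.21). In ob/ob against db/db, they were Lama1 (-0.04 to 0.12), Lama4 (-0.25 to 0.21), Lamc1 (-0.38 to 0.00) and Nid1 (-0.06 to 0.71), and in the interaction Lama4 (-0.65 to 0.84) and Lamb1 (-0.52 to 0.60). The cause of these changes was not tested. No paired analysis was possible because the column names carry no replicate number of the labels. The low counts of Lama2, Nid1, Nid2 and Fn1 limit what these libraries can show, and a change that misses the threshold is not shown to be absent.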
